A study of Mus musculus with 23 samples.

Results

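A set of 1487 chromatin regions was open in type 1 innate lymphoid cells (ILC1s) of both the salivary gland and the liver and less open in natural killer (NK) cells of both the spleen and the liver, out of 51412 ATAC-seq peaks in all. The peaks were chosen by their own ATAC-seq levels in normalised read counts (CPM, the reads in a peak, scaled to the same total over all peaks of each library). The lower of the salivary gland and liver ILC1 means had to reach 2 CPM and to be at least 1.5 times the higher of the spleen and liver NK means. The same rule turned round, with NK cells in place of ILC1s, chose 1747 peaks, called mirrored NK peaks here.

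ATAC-seq cuts open chromatin with a transposase, so a peak marks a stretch of DNA that regulatory proteins can reach, such as a promoter near a gene's start or an enhancer farther away. NK cells circulate through blood and spleen and kill by releasing granules of perforin and granzymes. ILC1s share the NK receptors NK1.1 and NKp46 but live within organs, salivary gland and liver among them, and do not recirculate. Residency is linked to the integrin CD49a, the chemokine receptor Cxcr6 and the transcription factor Hobit, encoded by Zfp683, while NK cells leave tissues with the help of the S1P receptor S1pr5 and depend on the T-box factor Eomes.

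The mouse ATAC-seq libraries came from 50000 sorted cells each, in 4 groups of 2 libraries: salivary gland ILC1s, liver ILC1s, spleen NK cells and liver NK cells. The sample labels disagree on the gate, since the cell type is given as GzmC+GzmcFM+ ILC1s and S1pr5eGFP+ NK cells, whereas the design text gives NK1.1+ NKp46+ cells that were CD49a+ for ILC1s and CD49a- CD49b+ for NK cells. RNA was sequenced from liver alone, in 4 populations sorted from 6 mice, 1 mouse per library. ILC1s with granzyme C and its fate-map mark (GzmC+GzmcFM+, DP) gave 4 libraries, ILC1s with the mark alone (GzmC-GzmcFM+, FMSP) gave 4, ILC1s with neither (GzmC-GzmcFM-, DN) gave 3, and S1pr5eGFP+ NK cells gave 4. Here granzyme C is a serine protease of cytotoxic granules, the fate-map mark records past expression of its gene Gzmc, and S1pr5eGFP is a fluorescent reporter of S1pr5. The labels give no strain, age or sex, and do not say whether the ATAC-seq libraries were made from pooled animals. Spleens were dissociated without enzyme, livers with collagenase D, and salivary glands with collagenase type III and DNase I, so organ and dissociation cannot be told apart.

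The markers given with the peak set were looked up in it. Since the same ATAC-seq levels chose the peaks, these peak counts and the shares of counts by library are description only. All 3 peaks assigned to Cxcr6 and 4 of 5 assigned to Zfp683 were shared ILC1 peaks, as were 5 of 13 assigned to Itga1, which encodes CD49a. The single peak of Eomes and the 3 peaks of S1pr5 held no shared ILC1 peak, and 1 of the S1pr5 peaks was a mirrored NK peak. ATAC-seq libraries held 5609587 to 26944890 counts in peaks. The shared ILC1 peaks took 4.04% and 4.12% of the counts in salivary gland ILC1 libraries, 3.36% and 3.67% in liver ILC1 libraries, 1.39% and 1.44% in spleen NK libraries, and 1.86% and 1.71% in liver NK libraries.

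Promoters of 6 genes with a shared ILC1 peak are shown because their promoters lie within such a peak and their peaks or RNA are described below: the residency receptor Cxcr6, granzyme C, the T cell growth factor Il2, the lymphotoxin subunit Ltb, the CD200 receptor family member Cd200r2 and the integrin chain Itga1. Each sequence is the 250 bases before the gene's start, 5′ to 3′ on the gene's strand, from RefSeq on GRCm38.p6, and lies wholly within a shared ILC1 peak. Capitals mark 6 short motifs searched on both strands: TCACACC (T-box), TGTGGT (Runx), CAGGAAG (Ets), TGANTCA (AP-1), TTCNNNGAA (Stat) and TGGAAAA (NFAT).
Cxcr6, chr9:123806227-123806476, + strand: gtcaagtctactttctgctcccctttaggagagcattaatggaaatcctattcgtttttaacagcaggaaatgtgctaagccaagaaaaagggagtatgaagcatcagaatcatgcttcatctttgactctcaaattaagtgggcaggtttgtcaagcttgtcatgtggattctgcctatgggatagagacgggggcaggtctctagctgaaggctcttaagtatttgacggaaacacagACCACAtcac
Gzmc, chr14:56234658-56234907, - strand: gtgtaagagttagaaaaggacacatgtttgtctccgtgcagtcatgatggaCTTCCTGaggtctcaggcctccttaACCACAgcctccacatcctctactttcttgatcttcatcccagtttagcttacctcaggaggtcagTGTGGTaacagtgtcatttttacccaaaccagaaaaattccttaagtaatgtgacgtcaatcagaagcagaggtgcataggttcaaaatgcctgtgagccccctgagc
Il2, chr3:37125955-37126204, - strand: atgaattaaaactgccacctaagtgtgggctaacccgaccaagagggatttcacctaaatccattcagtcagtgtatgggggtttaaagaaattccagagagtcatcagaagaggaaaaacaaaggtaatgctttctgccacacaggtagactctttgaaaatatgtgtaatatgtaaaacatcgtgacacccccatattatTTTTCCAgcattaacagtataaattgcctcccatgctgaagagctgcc
Ltb, chr17:35194257-35194506, + strand: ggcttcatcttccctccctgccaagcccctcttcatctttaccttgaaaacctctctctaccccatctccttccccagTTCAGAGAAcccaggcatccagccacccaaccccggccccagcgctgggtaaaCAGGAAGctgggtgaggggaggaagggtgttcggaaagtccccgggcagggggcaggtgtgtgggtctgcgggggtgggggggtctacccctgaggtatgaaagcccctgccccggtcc
Cd200r2, chr16:44866847-44867096, + strand: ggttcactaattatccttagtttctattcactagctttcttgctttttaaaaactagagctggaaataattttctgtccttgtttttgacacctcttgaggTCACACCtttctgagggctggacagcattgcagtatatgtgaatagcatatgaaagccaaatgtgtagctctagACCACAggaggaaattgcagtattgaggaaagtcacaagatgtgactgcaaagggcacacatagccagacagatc
Itga1, chr13:115101965-115102214, - strand: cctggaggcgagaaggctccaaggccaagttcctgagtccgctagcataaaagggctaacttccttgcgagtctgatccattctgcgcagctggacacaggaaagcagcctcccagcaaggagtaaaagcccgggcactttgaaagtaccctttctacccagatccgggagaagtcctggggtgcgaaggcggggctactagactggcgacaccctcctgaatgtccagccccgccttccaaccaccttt

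Cxcr6 held 1 Runx match that began 10 bases before the start. Gzmc held 2 Runx matches, at 174 and 108 bases, and an Ets match at 199 bases. Il2 held an NFAT match at 48 bases, Ltb an Ets match at 119 and a Stat match at 172 bases, and Cd200r2 a T-box match at 149 and a Runx match at 75 bases. Itga1 held none of the 6. These are matches of letters, and no binding was measured.

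RefSeq promoter windows of 250 bases lay wholly within shared ILC1 peaks in 111 cases, for 101 genes, against 81 within mirrored NK peaks and 11939 within any peak. The Ets motif was in 17.1% of the windows in shared ILC1 peaks, 21.0% of those in mirrored NK peaks and 10.4% of all. The Runx motif was in 16.2%, 24.7% and 10.9%, and the T-box motif in 7.21%, 13.6% and 2.91%, in the same order. The AP-1 motif was in 7.21%, 6.17% and 4.00%, the Stat motif in 7.21%, 8.64% and 5.61%, and the NFAT motif in 3.60%, 7.41% and 3.71%. Of these motifs, all but NFAT were in windows of both sets more often than in all windows. Windows in mirrored NK peaks held the Runx and T-box letters most often. Among the motifs given next, Tcf and Lef and the E-box were also more frequent in both sets. So were Klf and Nr4a, by a small margin in shared ILC1 peaks. No test was made of these shares. Of 9 further motifs searched, Klf (GGGTGTG) was in 7.21% of windows in shared ILC1 peaks, 21.0% of those in mirrored NK peaks and 7.14% of all. The Prdm1 and Hobit type motif (AAGTGAA) was in 0.901%, 8.64% and 2.91%, that of Tcf and Lef (CTTTGAA) in 6.31%, 7.41% and 2.93%, and that of Nr4a (AAGGTCA) in 2.70%, 7.41% and 2.50%. The E-box (CAGCTG) was in 15.3%, 14.8% and 11.2%, Smad (CAGACAG) in 4.50%, 7.41% and 4.94%, and Maf (TGCTGAC) in 5.41%, 1.23% and 2.82%. The Gata motif (AGATAA) was in 7.21%, 3.70% and 4.96%, and the CTCF core (AGGTGGC) in 4.50%, 4.94% and 5.91%. With 111 and 81 windows a share of a few percent rests on few windows. Base composition differed as well, with a median GC content of 58.4%, 50.8% and 61.2%, and its part in these shares was not tested.

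The shared ILC1 peaks were less often at promoters than the peak set as a whole. In the authors' annotation 363 of the 1487 (24.4%) were of promoter type, 547 (36.8%) lay in introns, 431 (29.0%) between genes and 146 (9.82%) in exons. Of all peaks 35.0% were of promoter type, and of the 44273 peaks at 2 CPM or more in both ILC1 groups 38.4%. The mirrored NK peaks held 19.7% promoter, 37.5% intron, 35.3% intergenic and 7.44% exon peaks. Exon peaks made up 9.82% of the shared ILC1 peaks and 6.66% of all peaks. The width had a median of 1007 bases, against 900 for mirrored NK peaks and 999 for all peaks.

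**Figure D1:**
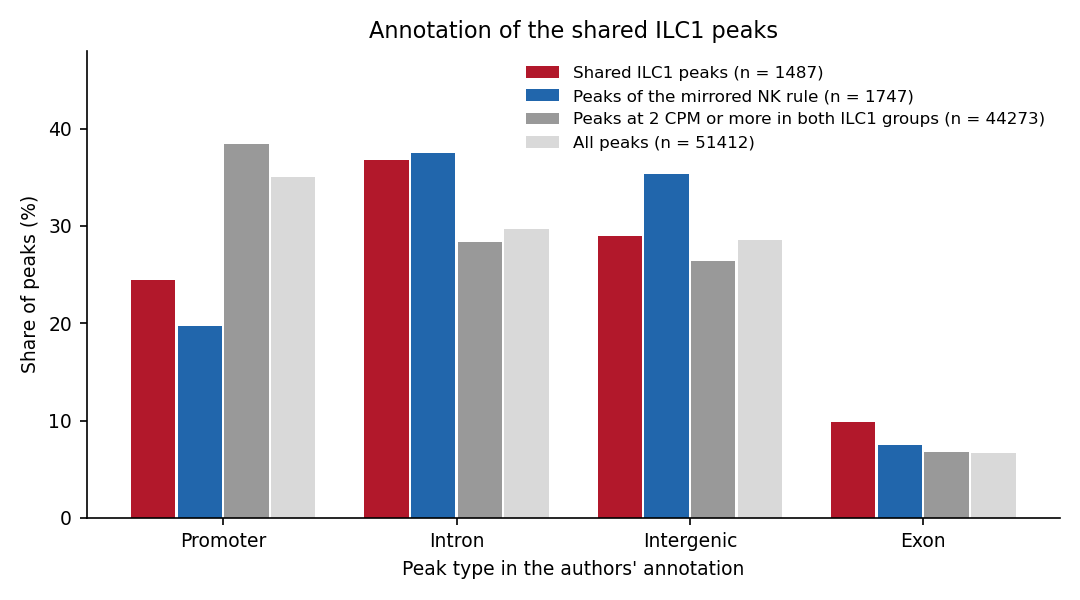
Share of peaks (%) by type in the authors' annotation for the shared ILC1 peaks, the mirrored NK peaks, peaks at 2 CPM or more in both ILC1 groups, and all peaks. Promoter peaks made up 24.4% of the shared ILC1 peaks and 35.0% of all peaks, and exon peaks 9.82% and 6.66%.

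The ratio of the lower ILC1 mean to the higher NK mean, which chose the peaks, ran from 1.5 to 6.95 with a median of 1.76. It was 2 or more in 398 peaks and 3 or more in 46. In 1436 of the 1487 every ILC1 library was above every NK library, an order found in 8.05% of all peaks, and 1486 were called higher in ILC1s than in NK cells, as 20.9% of all peaks were. Both counts follow from the rule and are given as description only. Just inside the ratio threshold lay peaks of Rin3, whose ratio equals the threshold when rounded, Gm27626 (1.5005) and Rapgef6 (1.5006), and just outside it peaks of Mfsd13a (1.4998), Osgin1 (1.4997) and Ets1 (1.4997). The liver was the lower ILC1 group in 965 peaks and the salivary gland in 522. Among NK cells the liver was the higher group in 1294 peaks and the spleen in 193.

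The 2 peaks with the highest ratios both belonged to Cxcr6, whose product binds the chemokine Cxcl16 and holds lymphocytes in the liver. Its exon peak (chr9:123811678-123812388, mm10) had 17.4 and 21.4 CPM in salivary gland ILC1s and 17.2 and 20.5 CPM in liver ILC1s, against 1.40 and 2.34 CPM in spleen NK cells and 3.29 and 2.14 CPM in liver NK cells. That is a ratio of 6.95 between the lower ILC1 and the higher NK mean, with all 4 ILC1 libraries far above all 4 NK libraries. The promoter peak that holds the Cxcr6 sequence above had 19.4 and 21.8 CPM in salivary gland ILC1s, 28.8 and 27.2 CPM in liver ILC1s, 2.10 and 1.53 CPM in spleen NK cells, and 4.69 and 2.67 CPM in liver NK cells, a ratio of 5.59.

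An intron peak of Inpp4b, which encodes a phosphatase that removes a phosphate from signalling lipids of the PI3K pathway, followed at a ratio of 4.61. It had 17.4 and 23.5 CPM in salivary gland ILC1s, 16.7 and 13.9 CPM in liver ILC1s, 2.52 and 3.78 CPM in spleen NK cells, and 3.60 and 3.03 CPM in liver NK cells. The other 7 of the 10 highest ratios at 5 CPM or more were peaks assigned to Grasp (4.31), 2900026A02Rik (4.22), Dcaf7 (4.17), Pabpc1 (4.10) and Hecw2 (3.83), and 2 on chromosome 16 with no assigned gene (4.15 and 4.03). Apart from Cxcr6 and Inpp4b, none of these 10 peaks belonged to a gene of the lists used here.

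The 4 Zfp683 peaks spanned a wide range of ratios. Its strongest promoter peak (chr4:134057982-134059479) had 31.7 and 41.2 CPM in salivary gland ILC1s, 34.8 and 41.3 CPM in liver ILC1s, 4.84 and 7.21 CPM in spleen NK cells, and 15.5 and 9.45 CPM in liver NK cells, a ratio of 2.92. The other promoter peak had a ratio of 2.28, and the 2 intergenic ones 1.59 and 1.55. NK cells were well below ILC1s at both promoter peaks and nearer to them at the intergenic peaks. The Itga1 peak with the highest ratio, in an intron, had 30.6 and 26.6 CPM in salivary gland ILC1s, 19.9 and 24.8 CPM in liver ILC1s, 7.29 and 6.03 CPM in spleen NK cells, and 7.04 and 5.88 CPM in liver NK cells, a ratio of 3.36.

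The promoter peak of Gzmc had 19.7 and 22.4 CPM in salivary gland ILC1s, 14.5 and 20.7 CPM in liver ILC1s, 2.38 and 2.61 CPM in spleen NK cells, and 7.04 and 4.99 CPM in liver NK cells, a ratio of 2.92. A peak assigned to its neighbour Gzmb, which encodes granzyme B, lay between genes at chr14:56265911-56266734. It had 22.8 and 22.5 CPM in salivary gland ILC1s, 23.1 and 29.4 CPM in liver ILC1s, 4.06 and 4.32 CPM in spleen NK cells, and 10.6 and 10.2 CPM in liver NK cells. The log2 fold change of spleen over liver NK was -0.90 ± 0.32 (SE) at Gzmc, with an adjusted p of 0.016, and -0.93 ± 0.26 at Gzmb, with an adjusted p of 0.0020 (edgeR's quasi-likelihood test, Benjamini-Hochberg adjustment over all peaks). The rule capped the higher NK mean from these same libraries, so these values are description only.

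The Il2 promoter peak had 46.2 and 44.4 CPM in salivary gland ILC1s, 56.3 and 60.2 CPM in liver ILC1s, 11.3 and 9.91 CPM in spleen NK cells, and 22.2 and 11.2 CPM in liver NK cells, a ratio of 2.71. A peak of Tbx21, which encodes T-bet, the T-box factor that ILC1s and NK cells share, had 21.4 and 30.5 CPM in salivary gland ILC1s, 25.5 and 25.6 CPM in liver ILC1s, 12.1 and 15.4 CPM in spleen NK cells, and 16.0 and 13.5 CPM in liver NK cells. It was 1 of 4 peaks of Tbx21, at a ratio of 1.73.

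**Figure D2:**
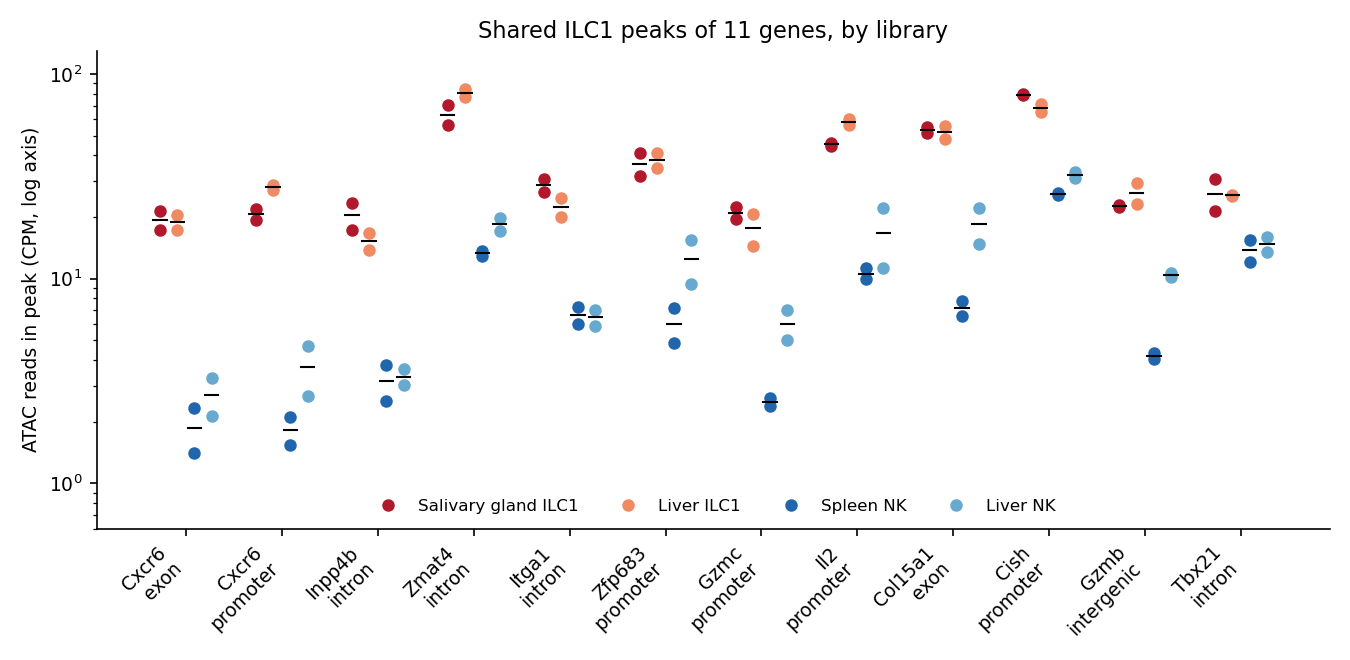
ATAC-seq level (CPM, log axis) of 12 shared ILC1 peaks of 11 genes in each library, as points, with the group means as bars. Every ILC1 library lay above every NK library at these peaks, with ratios from 1.73 at Tbx21 to 6.95 at the Cxcr6 exon peak.

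The peaks were spread over 1033 assigned genes, and 134 peaks had none. Of these genes 813 had 1 shared ILC1 peak, 155 had 2, 46 had 3, 10 had 4, 6 had 5, and 1 each had 6, 7 and 9. Inpp4b had the most, 9 of its 47 peaks, followed by Col15a1 with 7 of 8, a gene for a basement membrane collagen, and Ptprj with 6 of 19, a receptor phosphatase gene.

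Another shared ILC1 peak lay within 50 kb of 670 of the shared ILC1 peaks (45.1%), where 1 lay within 50 kb of 13.8% of the other peaks. In all, 14 runs of 5 or more, with gaps of at most 50 kb, held 83 of them. The longest run held 8 of the 10 peaks between chr4:47250794 and chr4:47348339, 7 assigned to Col15a1 and 1 to Tgfbr1, which encodes a receptor chain for TGF-beta. The next had 7 shared ILC1 peaks each: 7 of 11 peaks over 68.1 kb around Cish, a feedback inhibitor of cytokine signalling, and 7 of 8 over 66.9 kb around Cxcr6 and Fyco1. At Inpp4b all 6 peaks in a stretch of 26.9 kb were shared ILC1 peaks, and around Zfp683 5 of 6 over 41.4 kb were. Il4ra and Il21r, neighbouring genes for cytokine receptor chains, shared a run of 6 among 14 peaks. Of the 14 runs 1, at Coro2a and Tbc1d2, held a mirrored NK peak. Of the mirrored NK peaks 865 of 1747 (49.5%) had another within 50 kb. A mirrored NK peak lay within 50 kb of 159 shared ILC1 peaks (10.7%), near the 12.3% of peaks in neither set. Both kinds were assigned to 104 genes, which is 10.1% of the genes with a shared ILC1 peak and 9.52% of those with a mirrored NK peak, where 5.93% of all genes with a peak held a mirrored NK peak. In these bulk libraries a change in the share of cells that open a region and a change in openness per cell cannot be told apart, and the same holds for RNA.

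Within the Col15a1 run the ILC1 groups of the 2 organs differed at some peaks. Its peak with the highest ratio, in an exon (chr4:47309913-47311407) had 51.7 and 55.3 CPM in salivary gland ILC1s, 47.9 and 55.7 CPM in liver ILC1s, 6.59 and 7.75 CPM in spleen NK cells, and 22.1 and 14.8 CPM in liver NK cells. The intergenic peak that followed (chr4:47313919-47314654) was called higher in salivary gland ILC1s (19.3 and 18.5 CPM) than in liver ILC1s (7.59 and 10.4 CPM), at a log2 fold change of 1.28 ± 0.26 and an adjusted p of 4.9e-06 by edgeR's quasi-likelihood test. At the promoter peak the difference was 0.01 ± 0.18 (adjusted p = 0.96, same test).

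The X chromosome held few shared ILC1 peaks. Of its 1369 peaks 6 (0.438%) were shared ILC1 peaks, against 2.00% to 3.85% of the peaks of each autosome, and 47 (3.43%) were mirrored NK peaks. The 6 were assigned to Cask (3), Bcor, the chemokine receptor gene Cxcr3, and Gpr34, a receptor gene for lysophosphatidylserine. X-linked peaks took 1.94% and 1.85% of counts in salivary gland ILC1 libraries, 1.96% and 1.94% in liver ILC1 libraries, 2.14% and 2.15% in spleen NK libraries, and 2.16% and 2.26% in liver NK libraries. The peaks of Xist, the RNA that silences an X chromosome in female cells, summed to 49.1 and 45.0 CPM in salivary gland ILC1s, 42.7 and 47.1 CPM in liver ILC1s, 123.6 and 97.0 CPM in spleen NK cells, and 86.1 and 93.8 CPM in liver NK cells. The part of these levels in the X-linked count was not tested.

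Genes known from ILC1s held shared ILC1 peaks at a higher rate than peaks at large, of which 2.89% were members. The lists were chosen with earlier results of these data known, so the shares by list are description only. In the list of 20 ILC1 genes 32 of 139 peaks (23.0%) were, spread over 12 genes, and in that of 18 tissue residency genes 22 of 95 (23.2%), over 9 genes. The lists overlap in Cxcr6, Zfp683 and Itga1. Beyond these 3, the ILC1 list was marked at Inpp4b, Tnfsf10 (the death ligand TRAIL), Asb2, Cd200r2, Lag3, Rora, Tmem176a, Il21r and Gzmc. The residency list added Ahr, a receptor for dietary and microbial ligands, the repressor Hic1, Cish, Litaf, Gpr55 and Runx3. Of the 16 conventional NK genes 3 of 70 peaks were shared ILC1 peaks and 20 were mirrored NK peaks, and of 12 tissue egress genes 1 of 38 and 13.

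Cytokine genes were marked in 5 of 44 peaks (11.4%), at Il2 (2), Csf2, Lta and Ltb. Cytokine receptor genes were marked in 6 of 71 (8.45%), at Il2ra, Il4ra and Il21r with 2 each. Inhibitory receptor genes had 4 of 39 (10.3%), at Lag3 (2), Tigit and Cd96, and transcription factor genes 12 of 214 (5.61%), at Zfp683, Tbx21, Rora, Gata3, Ahr, Bach2, Ikzf3 and Runx3. Genes of the TGF-beta pathway, which shapes salivary gland ILC1s, had 4 of 123 (3.25%), near the overall 2.89%.

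Markers of other cells were checked in the same way. None of 22 T cell, 16 B cell, 12 hepatocyte or 32 stromal and endothelial marker peaks was a shared ILC1 peak. Over all peaks the share was 2.89%, so the lack of any in lists this small says little about these cells. Of 24 peaks of salivary gland epithelial markers 3 were, at Cdh1 (2) and Epcam, of 13 myeloid marker peaks 1, at Spi1, and of 29 ILC2 and ILC3 marker peaks 1, at Gata3. The epithelial marker peaks summed to 281.8 and 283.0 CPM in salivary gland ILC1s, 236 to 273 CPM in liver ILC1s, 131.0 to 160 CPM in spleen NK cells, and 239 to 293 CPM in liver NK cells. The Cdh1 intron peak was also open in liver ILC1s, at 56.7 and 69.4 CPM, against 83.4 and 87.8 CPM in salivary gland ILC1s, 16.0 and 21.5 CPM in spleen NK cells, and 31.5 and 25.5 CPM in liver NK cells. The Cdh1 promoter peak had 16.2 and 21.8 CPM in salivary gland ILC1s and 13.0 and 6.93 CPM in liver ILC1s. Its log2 fold change of salivary gland over liver was 1.24 ± 0.25, with an adjusted p of 7.4e-06 by edgeR's quasi-likelihood test. NK libraries lay between 3.51 and 6.42 CPM there.

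Although both ILC1 groups had to be high, salivary gland ILC1s were the higher of the 2 at many shared ILC1 peaks. Of the 1487 peaks 596 (40.1%) were called higher in salivary gland than in liver ILC1s, where 22.8% of all peaks were, and 18 (1.21%) lower, where 25.9% were. The median log2 fold change was 0.39, against -0.04 over all peaks tested. The mirrored NK peaks had 269 higher and 603 lower. The rule set a lower bound on both ILC1 means from these same 4 libraries, so these shares are a description and not a test of the peaks. The same limit holds for fold changes and adjusted p-values of single shared ILC1 peaks between organs. The counts also depend on scaling. With library totals alone the median of all peaks moved to -0.29, and 346 peaks (23.3%) were called higher, where 14.4% of all were, and 74 (4.98%) lower, where 33.8% of all were. Leaving out salivary gland replicate 2 left 371 (24.9%) called higher, where 14.0% of all peaks were, and leaving out liver ILC1 replicate 2 left 4 called lower.

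The largest difference among the shared ILC1 peaks was at a promoter peak of Snx29, which encodes a sorting nexin. It had 42.5 and 34.5 CPM in salivary gland ILC1s and 6.58 and 4.22 CPM in liver ILC1s, a log2 fold change of 3.12 ± 0.25 with an adjusted p of 8.9e-34 by edgeR's quasi-likelihood test. NK libraries lay between 1.98 and 3.13 CPM there, below both liver ILC1 libraries. An intron peak of Mnat1, a subunit gene of the kinase that activates cyclin-dependent kinases, had 42.8 and 34.7 CPM in salivary gland ILC1s and 8.10 and 4.52 CPM in liver ILC1s (2.92 ± 0.24, adjusted p = 3.5e-31). An intron peak of Cfap53 and 2 peaks with no gene, on chromosomes 3 and 2, followed at 2.64, 2.69 and 2.63.

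Peaks of listed genes were among those called higher. The Itga1 promoter peak had 60.3 and 64.4 CPM in salivary gland ILC1s and 25.3 and 34.7 CPM in liver ILC1s, with NK libraries at 13.1 to 15.8 CPM (log2 fold change 1.28 ± 0.18, adjusted p = 3.2e-11). An intergenic Il4ra peak had 65.2 and 62.1 CPM in salivary gland ILC1s and 20.7 and 31.8 CPM in liver ILC1s (1.49 ± 0.18, adjusted p = 1.4e-14). A Tgfbr2 intron peak had 62.4 and 65.4 CPM in salivary gland ILC1s and 33.4 and 38.0 CPM in liver ILC1s (1.08 ± 0.18, adjusted p = 2.3e-08). These are edgeR's quasi-likelihood tests with Benjamini-Hochberg adjustment, and in each case both salivary gland libraries were above both liver libraries.

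In the other direction an intron peak of Atp8a2, which encodes a phospholipid flippase, had 20.5 and 20.9 CPM in salivary gland ILC1s and 43.2 and 52.3 CPM in liver ILC1s, a log2 fold change of -0.97 ± 0.18 with an adjusted p of 1.2e-06. An intergenic Osgin1 peak had 11.8 and 9.83 CPM in salivary gland ILC1s and 26.0 and 24.1 CPM in liver ILC1s (-0.97 ± 0.24, adjusted p = 0.00029). Peaks of RP23-179D3.2 (-0.91), Gm16214 (-0.90) and Creb3l1 (-0.87) came next. Those of Gm16214 and Creb3l1 missed the threshold without liver ILC1 replicate 2 (adjusted p 0.0987 and 0.0788) or without salivary gland replicate 2 (0.0887 and 0.135), by edgeR's quasi-likelihood test. A further promoter peak of Cxcr6, near chr9:123808415, was lower in salivary gland ILC1s as well, with 5.48 and 7.94 CPM against 13.8 and 14.8 CPM in liver ILC1s (-0.83 ± 0.29, adjusted p = 0.011). The other 2 Cxcr6 peaks differed by -0.19 ± 0.21 and 0.28 ± 0.23.

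**Figure D3:**
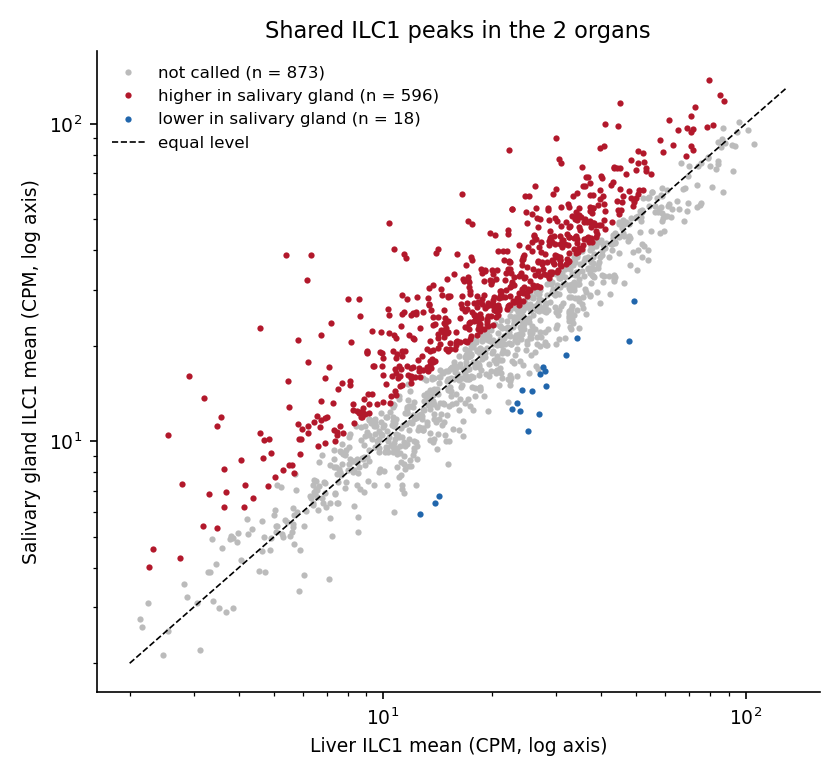
Mean level (CPM, log axes) of each shared ILC1 peak in salivary gland ILC1s against liver ILC1s, coloured by the call of edgeR's quasi-likelihood test at an adjusted p of 0.05, with a dashed line of equal level. Of 1487 peaks 596 were called higher and 18 lower in the salivary gland, and the calls use TMM-scaled counts while the axes show CPM of counts in peaks.

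Between the NK groups the shared ILC1 peaks were called higher in spleen than in liver in 83 cases (5.58%), where 20.9% of all peaks were, and lower in 196 (13.2%), where 19.8% were. The rule capped the higher of the spleen and liver NK means from these same 4 libraries, so these shares are a description and not a test of the peaks. That limit also holds for fold changes and adjusted p-values of single shared ILC1 peaks between the NK groups. The median log2 fold change was -0.08, near the -0.11 of all peaks tested. Spleen NK libraries were also lower in summed marker peaks of other cells, T cells apart. B cell markers had 134 to 137 CPM in spleen NK and 188 to 215 CPM in liver NK. In that order, stromal and endothelial markers had 288 to 325 CPM and 400.2 to 435 CPM, and hepatocyte markers 77.9 to 79.3 CPM and 122 to 127 CPM. T cell markers went the other way, with 597 to 616 CPM in spleen NK and 560 to 562 CPM in liver NK. Promoter-type peaks took 65.2% and 63.8% of counts in spleen NK libraries and 53.6% and 55.4% in liver NK libraries, and the part of these differences was not tested. The lowest called fold changes of spleen over liver were at intergenic peaks of Gm44019 (0.491 and 0.180 CPM in spleen NK cells, 1.41 and 3.39 CPM in liver NK cells) and of Ap4e1 (0.631 and 0.450 CPM in spleen NK cells, 3.60 and 2.67 CPM in liver NK cells). Their log2 fold changes were -2.34 ± 0.61 and -2.11 ± 0.52, with adjusted p-values of 0.00090 and 0.00037 by edgeR's quasi-likelihood test, and Gm44019 missed the threshold without liver NK replicate 2 (0.128). In the other direction Mast1, a kinase gene, had a promoter peak with 19.3 and 19.6 CPM in spleen NK cells and 13.6 and 13.2 CPM in liver NK cells (0.92 ± 0.21, adjusted p = 0.00014), and a promoter peak of Pitpnm1 differed by 0.95 ± 0.32 but lost its call in 3 of 14 alternatives, at adjusted p-values of up to 0.155. An exon peak of Tmem176a, which encodes a membrane protein, had 1.19 and 2.16 CPM in spleen NK cells and 10.6 and 5.53 CPM in liver NK cells (-1.93 ± 0.34, adjusted p = 5e-07). An Inpp4b intron peak with 32.7 and 41.6 CPM in salivary gland ILC1s and 16.7 and 18.6 CPM in liver ILC1s had 2.87 and 3.78 CPM in spleen NK cells and 12.5 and 7.67 CPM in liver NK cells. Counts of calls moved with scaling and with single libraries here too. With library totals alone 2 (0.134%) were higher, where 10.3% of all peaks were, and 548 (36.9%) lower, where 36.5% of all were, so the share of lower calls was then at the level of all peaks. Without liver NK replicate 1 the counts were 30 and 87 (2.02% and 5.85%, where 11.8% and 9.72% of all peaks were), and without spleen NK replicate 1 they were 25 and 98 (1.68% and 6.59%, where 13.3% and 8.87% were).

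RNA, which the rule did not use, was measured in liver cells only. In each of the 4 groups the library of mouse 1, 2 or 3 stood apart from those of mice 4 to 6, with a chi-square per degree of freedom of 555 to 1223 against them and of 106 to 239 among mice 4 to 6. Of the 1033 genes with a shared ILC1 peak 864 were in the RNA table and 807 passed the filter on low counts, which ILC1s can pass for a gene by being high themselves. Of those 807 genes 137 (17.0%) were called higher in the mean of DP, FMSP and DN ILC1s than in NK cells, where 2.90% of all 17124 genes tested were, and 31 (3.84%) lower, where 3.02% were. The median log2 fold change was 0.30, against 0.08 over all genes. Genes with a mirrored NK peak had 12 called higher and 158 lower of 745. With the mouse as a block 226 genes (28.0%) were higher and 69 (8.55%) lower, where 5.40% and 7.26% of all genes were. In mice 4 to 6 alone 224 (27.6%) were higher and 74 (9.12%) lower, where 5.47% and 7.72% of all genes were. Without NK of mouse 5 19 (2.35%) were lower, where 2.14% of all genes were.

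Among genes with a peak, the number of shared ILC1 peaks went with the RNA. Among genes with 3 or more, 22 of 57 (38.6%) were called higher and 0 lower, with a median log2 fold change of 0.72. Among those with 2, 28 of 133 (21.1%) were higher and 3 lower (median 0.46), and among those with 1, 87 of 617 (14.1%) and 28 (median 0.21). Of genes with peaks but no shared ILC1 peak 2.64% were higher and 3.77% lower, with a median of 0.00. Genes with more shared ILC1 peaks also had more peaks of any kind, a median of 10, 8, 4 and 2 in that order. The 5403 genes with no peak at all broke the order of medians. Their median log2 fold change was 0.32, above that of genes with 1 shared ILC1 peak, although 1.31% were called higher and 1.39% lower. Of genes with a promoter-type shared ILC1 peak 71 of 271 (26.2%) were higher, and of those with an intron one 55 of 384 (14.3%). Where a gene held both a shared ILC1 peak and a mirrored NK peak, 4 of 89 were higher and 14 lower.

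**Figure D4:**
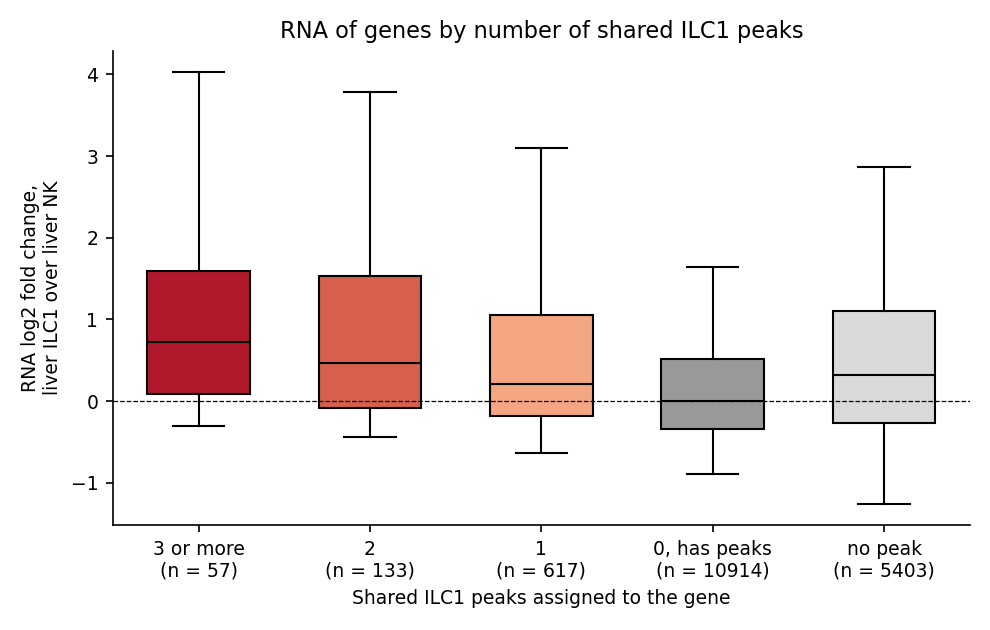
RNA log2 fold change of liver ILC1s over liver NK cells for genes grouped by their number of shared ILC1 peaks, as the median, quartiles and 10th to 90th percentile range. The median was 0.72 for genes with 3 or more, 0.46 with 2, 0.21 with 1 and 0.00 for genes with other peaks alone. For genes with no peak it was 0.32.

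Cxcr6 was among the genes with the highest ILC1 levels. It lay between 575 and 1639.9 CPM in the 11 ILC1 libraries, with a median of 1019 CPM, against 6.597, 1.35, 4.39 and 3.57 CPM in NK cells, a log2 fold change of 7.99 ± 0.46 with an adjusted p of 1.9e-07 by edgeR's quasi-likelihood test. Zfp683 lay between 54.6 and 206.6 CPM in ILC1s, with a median of 103.1 CPM, against 1.07, 0.260, 1.07 and 1.63 CPM in NK cells (6.77 ± 0.49, adjusted p = 1.2e-06). For both genes the lowest ILC1 library was far above the highest NK library. Itga1 lay between 57.0 and 559 CPM in ILC1s, with a median of 333 CPM, against 0.0187, 16.0, 8.47 and 16.7 CPM in NK cells (4.85 ± 1.02, adjusted p = 0.0084).

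Inpp4b, the gene with the most shared ILC1 peaks, lay between 39.5 and 452 CPM in ILC1s, with a median of 323 CPM, against 0.918, 3.53, 6.40 and 1.73 CPM in NK cells. Its log2 fold change was 6.51 ± 0.78 with an adjusted p of 8.1e-05 by edgeR's quasi-likelihood test. Col15a1, with 7, had little RNA, 1.06 to 4.80 CPM in ILC1s with a median of 2.69 CPM, but no count in any NK library. Against a floor of 3 counts over the 4 NK libraries it was at least 220.4-fold higher in ILC1s. Ptprj, with 6, had 7.60 to 43.9 CPM in ILC1s and 7.68, 12.4, 13.2 and 8.15 CPM in NK cells. The groups overlapped there, although the gene was called higher (1.36 ± 0.34, adjusted p = 0.027).

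Among the ILC1 list 11 of the 12 genes with a shared ILC1 peak were called higher in ILC1 RNA and 0 lower, and Rora missed the threshold (1.98 ± 0.58, adjusted p = 0.062 by edgeR's quasi-likelihood test). The 8 ILC1 genes without one include 7 called higher too, since 18 of all 20 were. As the lists were chosen with earlier results of these data known, RNA counts by list are description only. Asb2, which encodes a ubiquitin ligase subunit, lay between 249 and 774 CPM in ILC1s, against 4.03, 8.12, 7.65 and 10.5 CPM in NK cells (5.76 ± 0.36, adjusted p = 4.4e-07). Cd200r2 lay between 46.6 and 300.4 CPM in ILC1s, against 1.12, 0.683, 0.0486 and 0.105 CPM in NK cells. Of 9 residency genes with a shared ILC1 peak 7 were higher, and Litaf (0.62 ± 0.23) and Runx3 (-0.28 ± 0.21) did not pass. Hic1 lost its call in 3 of 22 alternatives, each without 1 NK library, at adjusted p-values up to 0.0830 by edgeR's quasi-likelihood test. Gpr55 lost it in 14 of 22, among them the fit with no filter on low counts (0.0747) and fits without single DP, FMSP, DN or NK libraries (up to 0.120, same test), and its groups overlapped.

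All 4 cytokine genes with a shared ILC1 peak were called higher, of 10 called higher among the 16 listed. Il2, whose protein drives growth of T cells and supports NK cells, lay between 3.45 and 39.3 CPM in ILC1s, with a median of 20.1 CPM, against 0.206, 0, 0 and 0 CPM in NK cells. Lta, a lymphotoxin subunit gene, lay between 1.85 and 11.6 CPM in ILC1s, with 3 counts in all over the NK libraries. Ltb had 180.7 to 705 CPM in ILC1s and 46.2, 65.8, 59.6 and 79.3 CPM in NK cells (3.16 ± 0.30, adjusted p = 9.0e-06 by edgeR's quasi-likelihood test). Csf2, the gene for GM-CSF, had 3.62 to 19.9 CPM in ILC1s and 0.656, 1.72, 1.46 and 1.15 CPM in NK cells (3.47 ± 0.50, adjusted p = 0.00044). Of the cytokine receptor genes Il21r (2.71 ± 0.25) and Il2ra (3.10 ± 0.68) were higher, and Il4ra (0.92 ± 0.45) did not pass. Of the inhibitory receptor genes Lag3 was higher (4.07 ± 0.50), with 15.3 to 50.3 CPM in ILC1s and at most 2.90 CPM in NK cells, and Cd96 (0.72 ± 0.26) did not pass. Tigit was called higher (1.17 ± 0.30, adjusted p = 0.031, same test) but lost the call in 10 of 22 alternatives, among them the mouse block (0.0977) and mice 4 to 6 alone (0.0875).

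Genes off the lists were among the largest differences. Zmat4, a zinc finger gene, had 3 shared ILC1 peaks, the strongest at 70.3 and 56.5 CPM in salivary gland ILC1s, 76.9 and 84.6 CPM in liver ILC1s, 12.9 and 13.7 CPM in spleen NK cells, and 19.7 and 17.1 CPM in liver NK cells. Its RNA lay between 5.63 and 52.4 CPM in ILC1s, with 4 counts in all over the NK libraries. Atp8a2 lay between 58.9 and 209 CPM in ILC1s, against 0, 0.0325, 0.113 and 0.538 CPM in NK cells, and Gpr34 between 15.6 and 112.8 CPM, against 0.225, 0.114, 0.681 and 0.464 CPM. Osgin1 (6.64 ± 0.84), Sema6d (6.38 ± 0.91), a semaphorin gene, and Cdh17 (6.37 ± 0.71), a cadherin gene, were also higher, at adjusted p-values of 0.00012, 0.00038 and 4.3e-05 by edgeR's quasi-likelihood test.

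Some genes with a shared ILC1 peak had less RNA in ILC1s. Prf1, which encodes perforin, had an intergenic peak with 45.9 and 49.1 CPM in salivary gland ILC1s, 29.9 and 35.6 CPM in liver ILC1s, 18.5 and 21.6 CPM in spleen NK cells, and 17.8 and 25.5 CPM in liver NK cells. Its RNA lay between 328 and 708 CPM in ILC1s, against 3863, 2751, 2985 and 1620.1 CPM in NK cells, a log2 fold change of -2.60 ± 0.23 with an adjusted p of 5.4e-06 by edgeR's quasi-likelihood test. Itgam, the gene for the NK maturation marker CD11b, fell by 4.50, and Zeb2, a repressor that drives NK maturation, by 4.32 on the log2 scale (adjusted p 5.6e-06 and 0.00070). Each held 1 shared ILC1 peak, beside 1 mirrored NK peak at Itgam and 2 at Zeb2. The Itgam peak was weak, with 3.11 and 3.19 CPM in salivary gland ILC1s, 3.88 and 2.91 CPM in liver ILC1s, 1.54 and 1.44 CPM in spleen NK cells, and 3.13 and 0.357 CPM in liver NK cells, so that the groups overlapped. Kcnip3 (-5.40 ± 0.66) and Rap1gap2 (-4.60 ± 0.89) also held both kinds. Bach2 (-1.58 ± 0.22) and Smad3 (-1.22 ± 0.25) were lower with 1 of each. Itga4, an integrin gene of the egress list, was lower at -2.70 ± 0.59 although the groups overlapped. Tbc1d30 (-3.99 ± 1.00) and Fer (-2.41 ± 0.58) were lower too, each with 1 shared ILC1 peak and 1 mirrored NK peak. The groups overlapped at Fer and not at Tbc1d30. Tbc1d30 and Fer lost the call in 5 and 3 of 22 alternatives, at adjusted p-values up to 0.143 and 0.0903 by edgeR's quasi-likelihood test. Of the 8 transcription factor genes with a shared ILC1 peak Zfp683 and Ahr were higher, Tbx21 and Bach2 lower, and Rora, Gata3, Ikzf3 and Runx3 did not pass. Tbx21 was lower at -1.01 ± 0.25 (adjusted p = 0.026 by edgeR's quasi-likelihood test), although the groups overlapped. It lost the call in 2 of 22 alternatives. One was without NK of mouse 1, which stood at 2139 CPM (0.180, same test). The other was without DN of mouse 2 and FMSP of mice 5 and 6, the 3 libraries high in hepatocyte markers (0.0995, same test).

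RNA libraries from liver can hold RNA of other cells. The 18 hepatocyte markers summed to 205 to 391 CPM in DP, 166 to 2194 CPM in FMSP, 226 to 938 CPM in DN and 77.5 to 199 CPM in NK libraries, and 1 was called higher in ILC1s. The fit was repeated without the 3 libraries highest in them, DN of mouse 2 and FMSP of mice 5 and 6. Then 150 genes with a shared ILC1 peak (18.6%) were higher and 27 (3.35%) lower, where 2.91% and 2.77% of all genes were. The 14 T cell markers summed to 2049 to 3083 CPM in DP, 2234 to 3714 CPM in FMSP, 2467 to 3196 CPM in DN and 917 to 1317 CPM in NK libraries. Of these markers 8 were called higher in ILC1s and 1 lower. Their 22 peaks held no shared ILC1 peak, where 2.89% of all peaks were. The part of T cell markers in the RNA counts was not tested. Epcam, an epithelial marker with a shared ILC1 peak, was higher in ILC1 RNA (5.10 ± 0.86, adjusted p = 0.0014 by edgeR's quasi-likelihood test) and highest in DN of mouse 2, at 156 CPM, a library high in hepatocyte markers.

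**Figure D5:**
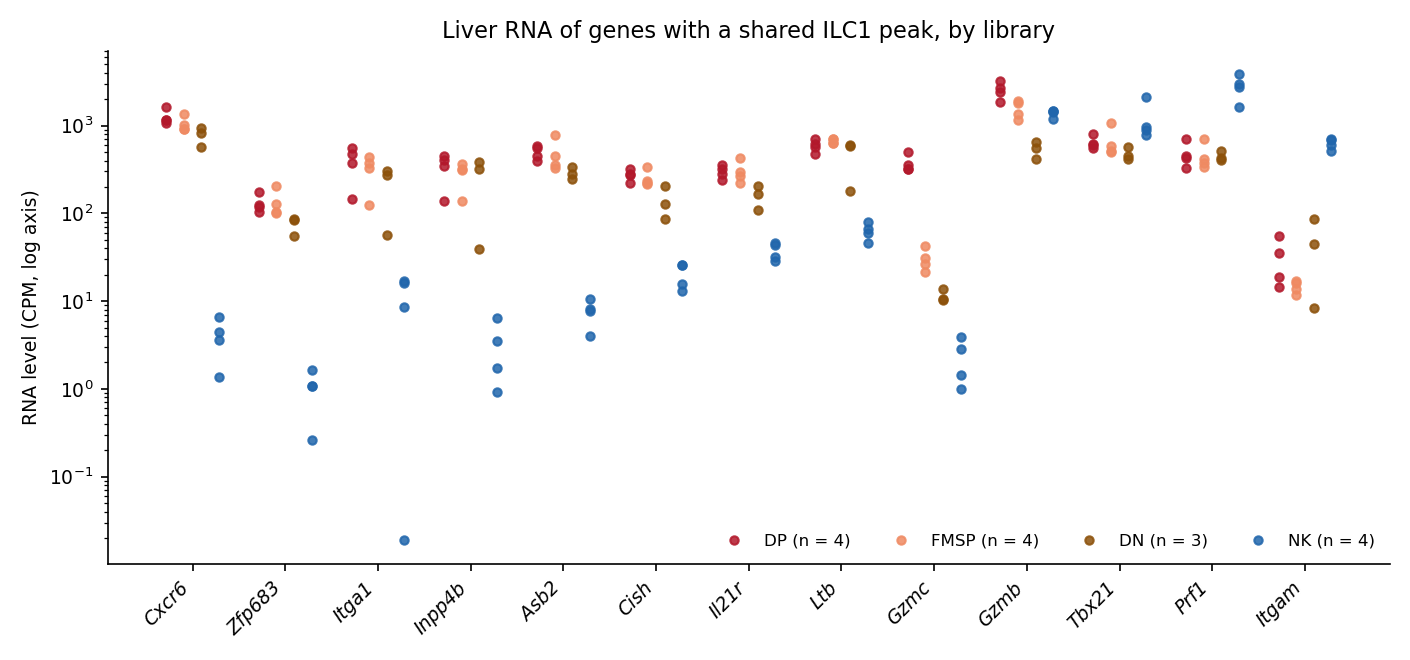
RNA level (CPM, log axis) of 13 genes with a shared ILC1 peak in each DP, FMSP, DN and NK library of liver. Every ILC1 library of Cxcr6 (575 to 1639.9 CPM) lay above every NK library, whereas Prf1 and Itgam were higher in all NK libraries and Gzmb was lowest in DN.

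Within liver ILC1s, DP and DN cells differed in few of these genes. Of the 807 tested 2 (0.248%) were called higher in DP than in DN, where 0.0117% of all genes were, and 0 lower, where 0.0467% were, by edgeR's quasi-likelihood test. At an unadjusted p under 0.05 there were 116 of the 807, and 1133 of the 10914 genes with peaks but no shared ILC1 peak. DESeq2 called 21 (2.60%) higher and 4 (0.496%) lower, where 0.806% and 2.17% of all genes were. In mice 4 to 6 alone edgeR called 4 (0.493%) higher and 2 (0.247%) lower, where 0.0772% and 0.132% of all genes were. The 2 genes called higher by edgeR with all libraries were the only ones so called among all genes, and both were granzyme genes. Gzmc, whose product the sort was made on, had 495.9, 319.9, 359 and 320.1 CPM in DP libraries, 42.0, 26.4, 31.3 and 21.7 CPM in FMSP libraries, 10.5, 10.2 and 13.6 CPM in DN libraries, and 2.87, 1.43, 1.00 and 3.92 CPM in NK libraries. The log2 fold change of DP over DN was 5.03 ± 0.47 with an adjusted p of 0.00044 by edgeR's quasi-likelihood test. The NK markers Eomes and S1pr5, which held no shared ILC1 peak, were called lower in DP than in DN. Eomes had 33.7 to 114.9 CPM in DN, 0.315 to 6.61 CPM in DP and 396 to 479 CPM in NK libraries. Its log2 fold change was -4.85 ± 0.80 (adjusted p = 0.045, same test). S1pr5 had 34.7 to 99.7 CPM, 3.24 to 10.8 CPM and 310 to 871 CPM, in that order (-3.16 ± 0.47, adjusted p = 0.022). DN libraries are part of the ILC1 mean used above.

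Gzmb had 2385, 2658, 3239.9 and 1876 CPM in DP libraries, 1369.6, 1802, 1907 and 1154 CPM in FMSP libraries, 411, 654 and 557 CPM in DN libraries, and 1437, 1175, 1456 and 1462 CPM in NK libraries. All DP libraries were above all DN libraries, at a log2 fold change of 2.23 ± 0.25 with an adjusted p of 0.0013 by edgeR's quasi-likelihood test. The difference between the ILC1 mean and NK did not pass this test (-0.10 ± 0.18, adjusted p = 0.87), although the Gzmb peak described above was among the shared ILC1 peaks. Reads of near-identical granzyme genes may have been split among them in the authors' counts, so these levels are uncertain to that extent. Over all 807 genes the median log2 fold change of DP over DN was 0.24, against -0.09 over all genes tested.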

How the data were processed

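ATAC-seq of 8 libraries and RNA-seq of 15 libraries were analysed. The authors deposited raw ATAC-seq counts per peak for 51412 peaks with a type and, for most, a gene, on mm10, and RNA estimated counts per gene, which need not be whole and were rounded. Per the submitters' processing notes the tools were Bowtie2, SAMtools, MACS2, Salmon 1.6 and DESeq2; their settings, and how peaks were assigned to genes, are not given in the sources used here. Starts were taken as 1-based. RNA totals were 51641248 to 73309063 counts per library; 26 gene symbols that read as dates held 0.265% of the counts.

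ATAC-seq levels are CPM of the counts in peaks, and RNA levels CPM on TMM-adjusted totals. Each assay was fitted once over its libraries with edgeR 4.0.16 in R 4.3.3 (filterByExpr with a minimum count of 10, TMM, robust quasi-likelihood test), with Benjamini-Hochberg adjustment over all 51292 peaks or 17124 genes tested and a threshold of 0.05. The ILC1 side of the RNA contrast is the mean of DP, FMSP and DN. Alternatives used DESeq2 1.42.0, and the fits were tested on simulated data. Tables were made with Python 3.11.15, pandas 2.3.3 and numpy 2.4.6, and figures with matplotlib 3.10.9. No motif search around peak centres was run, as only promoter sequences were at hand; the motifs were searched in RefSeq promoter windows instead.

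The members and the gene lists were chosen with earlier results of these data known. Named peaks are those of Cxcr6 and Zfp683, of the genes with the most members and of listed genes, the 10 highest ratios at 5 CPM or more, the 5 highest and 5 lowest called fold changes of salivary gland over liver ILC1s and 2 each of spleen over liver NK, and the 3 on either side of the ratio threshold. Named RNA genes are the 12 highest and 8 lowest called fold changes of ILC1s over NK at 10 CPM or more, up to 5 each way for DP over DN, and listed genes with a member. The further peaks and genes shown beside them were chosen after their values were seen. RNA replicate numbers name the mouse, so they pair libraries of the same animal: deviations from group means had a median correlation of 0.113 over the 16 same-mouse pairs and -0.0266 over the 68 others. ATAC-seq numbers are not said to mark the same animal, and p-values there measure the spread between libraries.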

Additional observations from a re-analysis of the deposited data

Results flagged for a closer look

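Of 126 groups of 4 libraries tested over the named genes, 14 had a library set apart from the other 3, where chance gives about 1 in 20. Of the 14, 11 were libraries of mice 1 and 3. Il4ra stood apart in 3 groups, at 367 CPM in DP of mouse 3 (others 125 to 163 CPM), 488 CPM in FMSP of mouse 3 (133 to 142.0 CPM) and 191 CPM in NK of mouse 1 (48.2 to 67.9 CPM). Tbx21 was high in FMSP of mouse 3 at 1058 CPM (504 to 588 CPM) and in NK of mouse 1 at 2139 CPM (789 to 959 CPM). FMSP of mouse 3 was also high for Osgin1 at 260.3 CPM (118 to 137 CPM), Cish at 335 CPM (217 to 235 CPM) and Tgfbr2 at 286 CPM (124 to 150.5 CPM).

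In DP of mouse 3, Tnfsf10 was low at 128 CPM (others 235 to 256 CPM) and Spi1 high at 43.8 CPM (5.78 to 9.13 CPM). Hic1 was high in NK of mouse 1 at 42.6 CPM (9.14 to 10.1 CPM), close to its lowest ILC1 library at 43.7 CPM. The remaining 3 were Zmat4 in FMSP of mouse 5 at 52.4 CPM (20.3 to 24.98 CPM), Il2 in DP of mouse 5 at 26.6 CPM (19.1 to 20.1 CPM) and Gzmb in NK of mouse 4, low at 1175 CPM (1437 to 1462 CPM).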

How the results depend on the processing

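A ratio of 2 chose 398 peaks, the rule applied to every library 648, and leaving out a library 1401 to 2126 (2126 without liver NK replicate 1); TMM-adjusted sizes chose 1914, of which 1290 were members. Between salivary gland and liver ILC1s, library totals alone gave 346 higher and 74 lower, DESeq2 9 lower, and leaving out a library 371 to 607 higher and 4 to 23 lower (10 without salivary gland replicate 1). Between spleen and liver NK cells, library totals alone gave 2 higher and 548 lower, DESeq2 47 higher, and leaving out a library 25 to 106 higher and 87 to 209 lower (55 higher without liver NK replicate 2). The replicate block, which is no known pairing in ATAC-seq, gave 613 higher and 19 lower in ILC1s and 90 and 202 in NK cells; deviations of libraries with the same number correlated at -0.120 to 0.179. For RNA of ILC1s over NK, DESeq2 gave 212 genes higher, the mouse as replicate block 226 higher and 69 lower, mice 4 to 6 alone 224 and 74, and leaving out a library 94 to 156 higher and 19 to 41 lower. Scaling by totals without TMM gave 163 and 25, with a median of 0.21 over all genes. For DP over DN, DESeq2 gave 21 higher and 4 lower and mice 4 to 6 alone 4 and 2; the replicate block gave 2 and 0, and leaving out a library 2 to 3 and 0. The cause of these shifts was not tested. No called RNA log2 fold change of a named gene changed sign in the alternatives run (those of Gata3 and Tgfbr2, near 0 and not called, did). For the peaks, with library totals alone the members' share of lower spleen calls, below that of all peaks otherwise, was 36.9% against 36.5%. With 2 libraries per ATAC-seq group and 5609587 counts in the shallowest, differences at weak peaks are the least certain. Motif windows around peak centres were not run.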

Other observations

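Some peaks of these genes were high in salivary gland ILC1s and some in liver ILC1s. At Lag3, which encodes an inhibitory receptor, the intergenic shared ILC1 peak differed by 1.25 on the log2 scale of salivary gland over liver, and the promoter one by -0.50 (adjusted p = 0.030, edgeR's quasi-likelihood test). At Zmat4 1 of 3 shared ILC1 peaks was called lower in salivary gland ILC1s, with 17.3 and 12.6 CPM there and 26.7 and 29.5 CPM in liver ILC1s (-0.68 ± 0.22, adjusted p = 0.0056, same test). Cdh17, a cadherin gene, had the largest positive DP over DN log2 fold change among the named genes after Gzmc, 3.22 ± 0.70, which did not pass (adjusted p = 0.14, same test).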
